A study of Homo sapiens with 14 samples.

Results

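The nonsense-mediated decay factors UPF1, UPF2, UPF3A, UPF3B, SMG1, SMG5, SMG6, SMG8 and SMG9 were followed in cells silenced for ADAR1, the enzyme that deaminates adenosine to inosine in double-stranded RNA. The 9 genes were taken by their symbols from the table of RPKM values (read numbers divided by gene length and library depth), where all 9 have a row among 21572 genes. The cells are labelled HepG2, a line grown from a tumour of the human liver. Control cells received scrambled siRNA and knockdown (KD) cells received siADAR1. The labels and the methods call the transfection stable, while the methods also state that silencing lasted 48 h. PARS-seq, in which poly-A RNA is digested in vitro with S1 nuclease, a cutter of single-stranded RNA, or with RNase V1, a cutter of double-stranded RNA, had 2 replicates of each enzyme and condition, which makes 8 libraries. RNA-seq had 1 library per condition, and Ribo-seq, which sequences the fragments that ribosomes protect, had 2 per condition. The study calls the replicates biological, while the labels do not name separate cultures, so p-values measure only the spread between these samples.

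Nonsense-mediated decay removes mRNAs on which a ribosome stops too early, and it also lowers many normal transcripts. The kinase SMG1, held by SMG8 and SMG9, phosphorylates the RNA helicase UPF1 at a stalled termination site. UPF2 joins UPF1 to UPF3B or its paralog UPF3A, which contact the exon junction complex left by splicing. Phosphorylated UPF1 is then bound by SMG6, an endonuclease that cuts the mRNA, and by SMG5, an adaptor that brings in dephosphorylation and decay from the ends.

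In hg19/GRCh37 coordinates of the GENCODE annotation, SMG1 is on chromosome 16 from 18816182 to 18937730 on the minus strand, SMG8 on chromosome 17 from 57286761 to 57292600 on the plus strand, and SMG9 on chromosome 19 from 44232135 to 44259114 on the minus strand. UPF1 is on chromosome 19 from 18942768 to 18979039 on the plus strand. UPF2 is on chromosome 10 from 11962021 to 12085169 on the minus strand. UPF3A is on chromosome 13 from 115047076 to 115071292 on the plus strand, and UPF3B on the X chromosome from 118967985 to 118986961 on the minus strand. SMG5 is on chromosome 1 from 156219015 to 156252616 and SMG6 on chromosome 17 from 1963133 to 2207079, both on the minus strand. Every value covers the whole gene model, from 5 exons in the longest coding transcript of SMG8 to 63 in that of SMG1. The annotation lists 7 pseudogene copies of SMG1 on chromosome 16 and 3 of UPF3A on chromosomes 17 and 9, so the values of these genes are uncertain where reads could come from a copy. SMG1 and SMG6 also overlap a gene on the opposite strand, and the counting is not stated to use strand. SMG8 overlaps a gene on its own strand, whose reads strand could not separate.

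The siRNA target, ADAR, was measured first. Its PARS-seq RPKM was 40.7 and 46.8 in control replicates 1 and 2 and 15.1 in both KD replicates, and its RNA-seq RPKM was 54.8 in the control and 15.4 in the KD. In Ribo-seq it was 43.6 and 55.5 in the controls, 8.73 in KD replicate 1 and 44 in KD replicate 2. The Ribo-seq library labelled KD replicate 2 therefore lies inside the control range for the target, and Ribo-seq values of the decay factors are given for each library, with the limma differences also without it. Of 10 hepatocyte markers, 9 stayed below 1 RPKM in every column. Albumin (ALB) reached at most 0.0442 RPKM and AFP at most 0.0286, while AMBP reached 1.24. The summed level of the 10 markers ranged from 0.21 to 1.33 RPKM in control columns and from 0.233 to 1.14 in KD columns. The defining markers of the labelled liver line are thus at or near 0. Of 9 markers of leukocytes, endothelium, fibroblasts and muscle, COL1A1 (9.75 to 54.7 RPKM), CD68 (1.48 to 22.7) and ACTA2 (1.14 to 15.8) passed 1 RPKM, and the list summed to between 20.9 and 92.3 RPKM in control columns and between 16.3 and 61.9 in KD columns. Their part in the results was not tested. In these bulk samples fewer cells of a type and less RNA per cell cannot be told apart.

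The decay factors were expressed at low to moderate levels, and their order depended on the assay. In control RNA-seq SMG5 was highest with 81.0 RPKM, followed by UPF1 with 37.9, SMG9 with 33.8, UPF3A with 20.5, UPF3B with 16.7, SMG8 with 7.36, SMG6 with 6.61, UPF2 with 5.52 and SMG1 with 2.83. In PARS-seq the average of the 2 control columns also put SMG5 first (21.6 RPKM) and SMG6 last (2.66 RPKM). There the control values of SMG9, UPF3A, UPF3B and UPF2 overlapped from each gene to the next, as did those of SMG1 and SMG8, whereas SMG5, UPF1 and SMG6 stood apart from their neighbours. In Ribo-seq UPF1 had the highest control mean (20.3 RPKM) and SMG6 the lowest (2.73 RPKM), and the control values of every gene overlapped with those of its neighbour in the order. RPKM is scaled by the length of the whole gene model, also in Ribo-seq, where footprints fall mainly on the coding part. The levels of SMG1, UPF3A, SMG6 and SMG8 carry the limits named above.

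**Figure D1:**
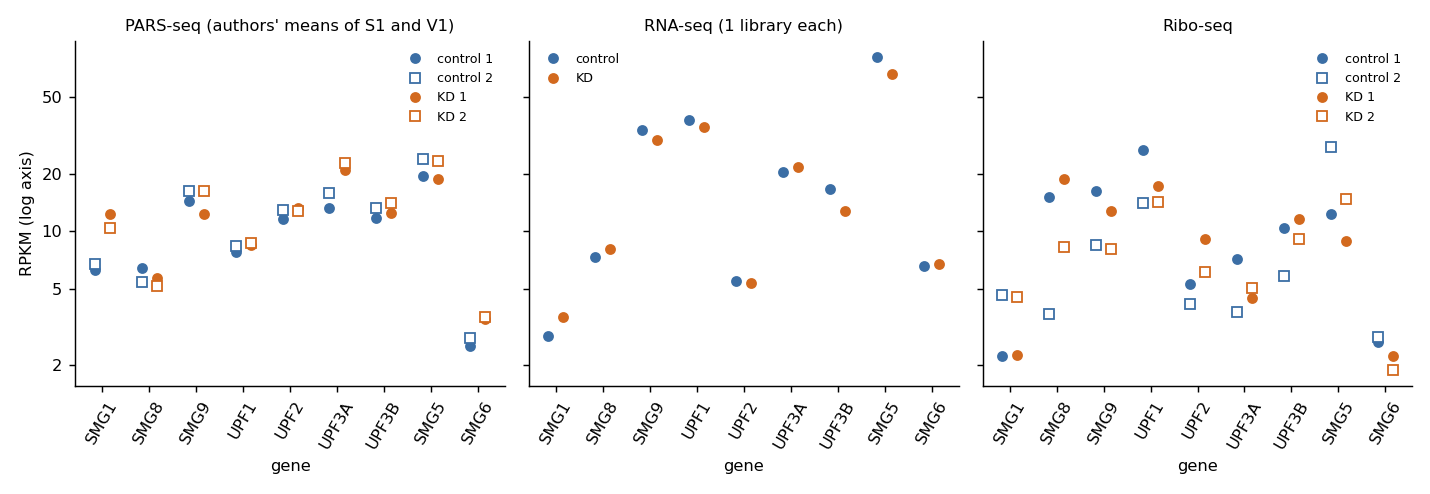
RPKM on a log axis of the 9 decay factors, with control in blue and KD in orange, filled circles for replicate 1 and open squares for replicate 2, for PARS-seq (each point the authors' mean of an S1 and a V1 library), RNA-seq and Ribo-seq. SMG1, UPF3A and SMG6 lie higher in both KD columns of PARS-seq, while most genes differ more between Ribo-seq replicates than between conditions.

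In PARS-seq, SMG1, UPF3A, SMG6 and, narrowly, UPF1 were higher in both KD columns than in both control columns, and no decay factor was lower in both. Each PARS-seq column is the authors' mean of the S1 and the V1 library of 1 replicate. These pooled values are given without a test. Of all 11151 genes with a mean of at least 1 RPKM, 33.3% were higher in both KD columns and 27.2% were lower in both. The 4 of 9 decay factors that were higher are near that background. The median log2(RPKM + 1) difference, KD minus control, was 0.08 over the 9 genes and 0.04 over all genes.

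SMG1, the kinase, showed the greatest PARS-seq ratio among the 9 genes. Its RPKM was 6.28 and 6.79 in control replicates 1 and 2 and 12.3 and 10.4 in KD replicates 1 and 2. The ratio of KD to control was 1.96 in replicate 1 and 1.54 in replicate 2, beside a 1.08-fold gap between the controls and a 1.18-fold gap between the KD columns. Its partners in the kinase complex did not follow it. SMG8 had 6.47 and 5.45 RPKM in the controls and 5.70 and 5.21 in the KD columns, with ratios of 0.88 and 0.955. SMG9 had 14.4 and 16.2 RPKM in the controls and 12.3 and 16.3 in the KD columns, with ratios of 0.851 and 1.01. For both partners the control and KD values overlapped.

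UPF1, the helicase at the centre of the pathway, had 7.77 and 8.43 RPKM in the control columns of PARS-seq and 8.46 and 8.74 in the KD columns. The lowest KD value exceeded the highest control value by less than the gap between the controls, and the separation is lost when columns are rescaled by the median of ratios. UPF2, the bridge to UPF3, had 11.6 and 12.9 RPKM in the controls and 13.2 and 12.8 in the KD columns, which overlap. UPF3A had 13.2 and 15.9 RPKM in the controls and 20.9 and 22.7 in the KD columns. Its ratios of 1.58 and 1.43 exceeded the 1.20-fold gap between its controls. UPF3B, the paralog with the stronger role in decay, had 11.7 and 13.2 RPKM in the controls and 12.4 and 14.0 in the KD columns, with a ratio of 1.06 in both replicates and overlapping values.

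SMG6, the endonuclease, was the lowest of the 9 genes in PARS-seq. It had 2.53 and 2.79 RPKM in the controls and 3.51 and 3.57 in the KD columns, with ratios of 1.38 and 1.28. SMG5, the adaptor of the other decay branch, had 19.4 and 23.7 RPKM in the controls and 18.8 and 23.3 in the KD columns. Its ratios were 0.971 and 0.982, against a 1.22-fold gap between the control replicates.

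In RNA-seq no decay factor changed by more than 1.5-fold between the single control and the single KD library. Of all 10938 genes with a mean of at least 1 RPKM, 6.72% were past 1.5-fold higher in the KD and 7.40% past 1.5-fold lower. The 9 genes had a median log2 ratio of -0.04, against -0.02 over all genes, and 4 were above a ratio of 1 and 5 below it. With 1 library per condition the difference has no replicate check. Whole read numbers recovered from the RPKM steps gave the counting error: 95% exact binomial intervals for the ratio of reads, scaled by library totals of 40729941 reads in the control and 30209865 in the KD. These intervals cover counting error only.

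SMG1 had 2.83 RPKM (1852 reads) in control RNA-seq and 3.59 RPKM (1742 reads) in the KD, a ratio of 1.27 with a counting interval from 1.19 to 1.35. It was the highest ratio of the 9 genes in RNA-seq, as it was in PARS-seq. UPF3B had 16.7 RPKM in the control and 12.8 in the KD, the lowest ratio, 0.771 (0.711 to 0.836). SMG5 went from 81.0 to 66.0 RPKM, a ratio of 0.815 (0.794 to 0.837).

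The remaining RNA-seq ratios were closer to 1. UPF1 had 37.9 and 35.1 RPKM, a ratio of 0.926 (0.895 to 0.958), and SMG9 had 33.8 and 30.0 RPKM, a ratio of 0.89 (0.842 to 0.94). SMG8 had 7.36 and 8.12 RPKM, a ratio of 1.10 with an upper bound of 1.21. For UPF2 (5.52 and 5.36 RPKM), UPF3A (20.5 and 21.7 RPKM) and SMG6 (6.61 and 6.72 RPKM) the counting interval held 1. The PARS-seq ratios of UPF3A and SMG6 thus had no counterpart of that size in RNA-seq, where the intervals ended at 1.13 for UPF3A and 1.09 for SMG6. The assays differ in library preparation, and the difference between them was not tested.

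**Figure D2:**
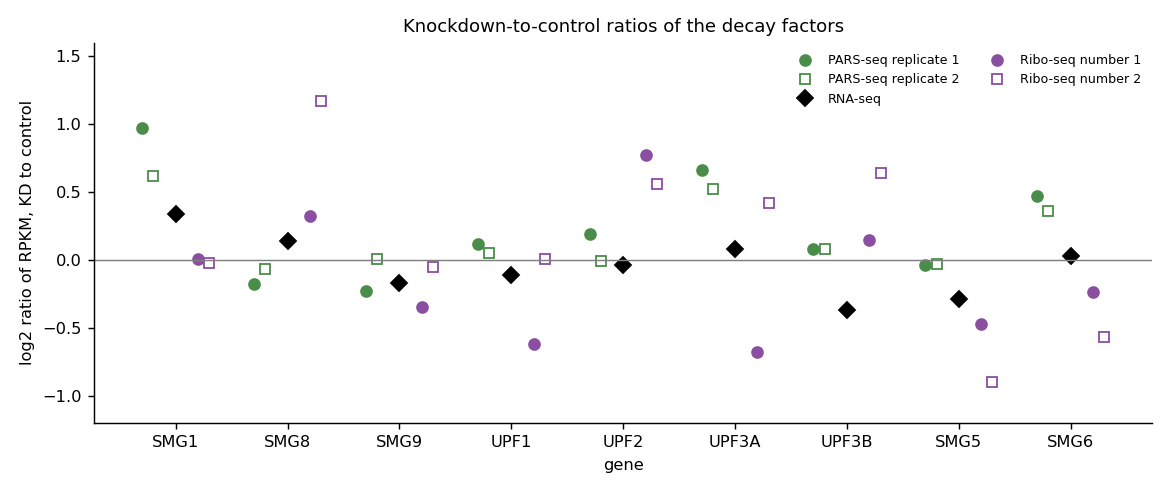
Log2 ratio of RPKM, KD to control, for each decay factor, with PARS-seq in green, RNA-seq in black and Ribo-seq in purple, filled circles for number 1 and open squares for number 2. SMG1 reaches 0.97 and 0.62 in PARS-seq, 0.34 in RNA-seq and 0.01 and -0.02 in Ribo-seq, and UPF3A turns from -0.68 to 0.42 between the Ribo-seq numbers.

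In Ribo-seq none of the 9 decay factors passed the test. limma on log2(RPKM + 1), with Benjamini-Hochberg adjustment over 10880 genes, called 0% of genes higher and 0% lower. At an unadjusted p under 0.05 there were 43 genes, and limma with precision weights on the recovered reads called 0, with 31 genes under that unadjusted p. With the replicate number as a block the first fit called 143 genes, with 1045 under that unadjusted p, and the second called 77, with none of the 9 decay factors in either. The log2 difference, KD minus control, ranged over the 9 genes from -0.64 ± 0.56 (SE) for SMG5 to 0.64 ± 0.75 for SMG8, and the adjusted p by limma was 1.00 for each. Without control replicate 1 the value was -1.19 for SMG5 and 1.53 for SMG8, and without control replicate 2 it was -0.10 for SMG5 and turned to -0.25 for SMG8. Without the library labelled KD replicate 2 the log2 differences were -0.39 for SMG1, 1.19 for SMG8, 0.10 for SMG9, -0.17 for UPF1, 0.82 for UPF2, -0.19 for UPF3A, 0.50 for UPF3B, -0.98 for SMG5 and -0.20 for SMG6, and SMG9 alone changed sign. Ribo-seq libraries with the same replicate number were more alike than those of the same condition: Pearson's r of log2(RPKM + 1) across 10880 genes was 0.959 and 0.945 between control and KD of numbers 1 and 2, and 0.773 and 0.822 between replicates of the control and of the KD. Genes are not independent replicates, and these values describe the libraries. For 6 of the 9 decay factors the mean log2 gap between replicates was larger than that between conditions.

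The Ribo-seq depth was low for these genes. The recovered totals were 995682 and 3322918 reads in control replicates 1 and 2 and 1404542 and 2405072 in KD replicates 1 and 2, and UPF3A had 17, 30, 15 and 29 reads in these libraries. Both KD values exceeded both control values for UPF2 alone among the 9 genes, beside 10.7% of all genes, and both lay below for SMG6 alone, beside 7.12% of all genes.

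UPF2 had 5.34 and 4.19 RPKM in the Ribo-seq controls and 9.13 and 6.17 in the KD libraries. The ratio was 1.71 (counting interval 1.10 to 2.74) within number 1 and 1.47 (1.06 to 2.04) within number 2, and the limma log2 difference was 0.57 ± 0.41 (SE). It was 0.32 without KD replicate 1 and 0.82 without KD replicate 2. SMG6 had 2.66 and 2.81 RPKM in the controls and 2.24 and 1.89 in the KD libraries. Its ratios of 0.844 (0.453 to 1.59) and 0.672 (0.438 to 1.01) both had intervals that held 1, so that a difference was not detectable at this depth within either number.

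SMG5 had 12.3 and 27.4 RPKM in the Ribo-seq controls and 8.89 and 14.7 in the KD libraries, so the groups overlapped. Within number 1 the ratio was 0.722 (0.49 to 1.06) and within number 2 it was 0.535 (0.443 to 0.643). UPF1 had 26.5 and 14.1 RPKM in the controls and 17.2 and 14.2 in the KD libraries. Its ratio was 0.649 (0.507 to 0.829) in number 1 and 1.01 (0.828 to 1.22) in number 2, where the target ADAR was at 0.794 of its control. The lower mean of UPF1 in the KD came from number 1 alone.

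SMG1 had 2.25 and 4.63 RPKM in the controls and 2.26 and 4.56 in the KD libraries. Its Ribo-seq values differed by replicate number and hardly by condition, with a counting interval of the ratio from 0.643 to 1.58 in number 1 and from 0.807 to 1.20 in number 2. SMG8 spread most, with 15.1 and 3.69 RPKM in the controls and 18.7 and 8.28 in the KD libraries. Its ratio was 1.24 (0.866 to 1.80) in number 1 and 2.25 (1.49 to 3.42) in number 2, beside a 4.09-fold gap between the controls.

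UPF3B had 10.4 and 5.88 RPKM in the Ribo-seq controls and 11.6 and 9.17 in the KD libraries, with overlapping groups. Its ratio was 1.11 (0.653 to 1.91) in number 1 and 1.56 (1.03 to 2.36) in number 2. UPF3A had 7.16 and 3.78 RPKM in the controls and 4.48 and 5.05 in the KD libraries, and its ratio changed direction between the numbers, from 0.626 (0.291 to 1.33) to 1.34 (0.774 to 2.30). SMG9 had 16.2 and 8.44 RPKM in the controls and 12.7 and 8.13 in the KD libraries, with ratios of 0.784 (0.493 to 1.25) and 0.963 (0.646 to 1.42).

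The ratio of Ribo-seq to RNA-seq RPKM was computed for each Ribo-seq library over the single RNA-seq library of its condition. Both KD ratios lay above both control ratios for UPF2 and UPF3B, beside 11.3% of 10138 genes, and below them for SMG6 alone, beside 7.94%. The ratio of UPF2 was 0.968 and 0.76 in control replicates 1 and 2 and 1.71 and 1.15 in the KD replicates. That of UPF3B was 0.627 and 0.353 in the controls and 0.899 and 0.714 in the KD replicates. That of SMG6 was 0.402 and 0.425 in the controls and 0.334 and 0.281 in the KD replicates.

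For the other 6 genes the groups overlapped. Within both numbers the log2 change of the ratio had the same sign in SMG1 (-0.34 and -0.37), SMG5 (-0.18 and -0.61) and SMG8 (0.17 and 1.03). SMG5 had low ratios throughout, 0.152 and 0.339 in the controls and 0.135 and 0.222 in the KD replicates, below the median of all genes, which was 0.734, 0.614, 0.745 and 0.703 in the same order. UPF1, UPF3A, SMG6 and SMG9 were also below that median in every Ribo-seq library. SMG8 reached 2.05 and 0.501 in the controls and 2.31 and 1.02 in the KD replicates. SMG1 had 0.795 and 1.63 in the controls and 0.63 and 1.27 in the KD replicates. The study defines translation efficiency on normalised read counts with a minimum of reads per gene, so these RPKM ratios are not that measure. All 4 ratios of a gene rest on 2 RNA-seq libraries, so the ratios of replicates are not independent, and no test was run.

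**Figure D3:**
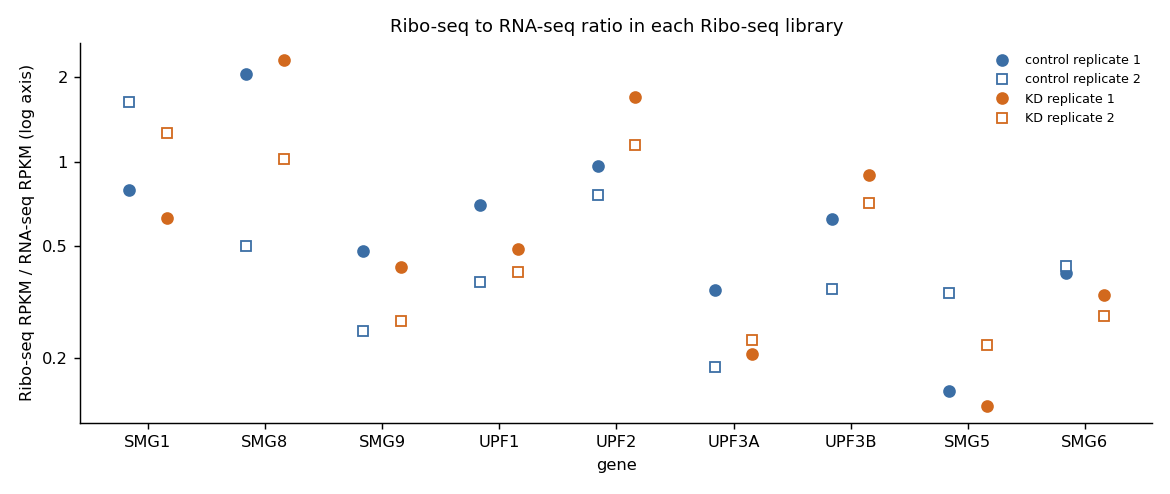
Ribo-seq RPKM over RNA-seq RPKM on a log axis for each decay factor in each Ribo-seq library, with control in blue, KD in orange, filled circles for replicate 1 and open squares for replicate 2. The KD points of UPF2 and UPF3B lie above both control points and those of SMG6 below, while SMG1 and SMG8 separate by replicate.

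Read starts per base could be read for SMG5 and SMG9 alone. These are the decay factors that a supplementary list pairs with a UCSC transcript identifier, and the other 7 were not analysed here at this level. That list holds transcripts which the study picked on these same samples for a change in the share of paired bases in the same direction in both replicates. The direction of that share in SMG5 and SMG9 is therefore fixed by the choice, and its values are a description.

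SMG5 (uc001foc.4, 4577 bases) had 4693 and 5186 S1 read starts in control replicates 1 and 2 and 4087 and 3811 in the KD replicates. With V1 it had 7501 and 8882 read starts in the controls and 9753 and 8743 in the KD replicates. SMG9 (uc002oxj.2, 2371 bases) had 2402 and 2178 S1 read starts in the controls and 1678 and 1672 in the KD replicates, and 2215 and 2677 V1 read starts in the controls and 2678 and 2630 in the KD replicates. The libraries held between 96618292 and 214584779 read starts, and 1 transcript took between 26.0% and 59.3% of the read starts on the transcripts listed in all 8 libraries. The deposited table of S1 control replicate 1 lists 4722 transcripts, against 21052 to 22402 in the other 7.

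After scaling by the trimmed mean of M values (TMM), SMG5 had 35.3 and 45.0 S1 read starts in CPM (scaled to library depth) in the controls and 37.4 and 47.1 in the KD replicates, and SMG9 had 18.1 and 18.9 in the controls and 15.4 and 20.7 in the KD replicates. The S1 log2 difference, KD minus control, was 0.08 ± 0.22 (SE) for SMG5 (limma adjusted p = 0.864) and -0.05 ± 0.23 for SMG9 (limma adjusted p = 0.909). limma called 6.48% of 4721 transcripts higher and 9.28% lower with S1. With V1 the scaled values were 61.8 and 73.2 in the controls and 53.7 and 67.5 in the KD replicates for SMG5, and 18.2 and 22.1 against 14.8 and 20.3 for SMG9. The V1 log2 differences were -0.16 ± 0.20 (limma adjusted p = 0.665) for SMG5 and -0.21 ± 0.22 (limma adjusted p = 0.586) for SMG9, while 3.91% of 16885 transcripts were called higher and 6.52% lower. Neither decay factor passed the test with either enzyme, and the groups overlapped in each case.

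The read starts of both transcripts were concentrated in a few stretches. With S1, bases 601 to 800 of SMG5, counted from the 5′ end of the transcript, held between 20.6% and 25.3% of its read starts and were the fullest stretch of 200 bases in all 4 libraries. With V1, bases 2001 to 2200 held between 12.3% and 16% and were the fullest in 3 of 4 libraries. In SMG9 bases 1001 to 1200 held 20.5% to 27.5% of S1 read starts and were the fullest in 3 of 4 libraries, and they held 20.4% to 27.1% of V1 read starts and were the fullest in all 4. Between 13.6% and 38.9% of the bases of these transcripts had any read start in a library.

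The share of read starts past the middle of the transcript differed more between replicate numbers than between conditions. The part of SMG5 past the middle of the transcript held 38.6% of V1 read starts in control replicate 1 and 44.7% in KD replicate 1, against 57.4% in control replicate 2 and 53.5% in KD replicate 2. With S1 the same share was 33.9% and 36.8% in the number 1 libraries and 49.2% and 49.9% in the number 2 libraries. In SMG9 it was 44.4% and 47.6% of V1 read starts in number 1 and 61.4% and 56.8% in number 2. Across the 4577 bases of SMG5, Spearman's rho of V1 read starts was 0.542 between control replicates, 0.546 between KD replicates, and 0.555 and 0.571 between control and KD of numbers 1 and 2. Across the 2371 bases of SMG9 it was 0.47 and 0.451 between replicates of the control and of the KD, and 0.449 and 0.48 between control and KD of numbers 1 and 2, so that in SMG9 number 2 lay above and number 1 below both values between replicates. S1 and V1 profiles of the same sample correlated with a rho of 0.0816 to 0.108 in SMG5 and 0.103 to 0.125 in SMG9. These correlations are across bases that share libraries and sequence, and are given as descriptions.

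**Figure D4:**
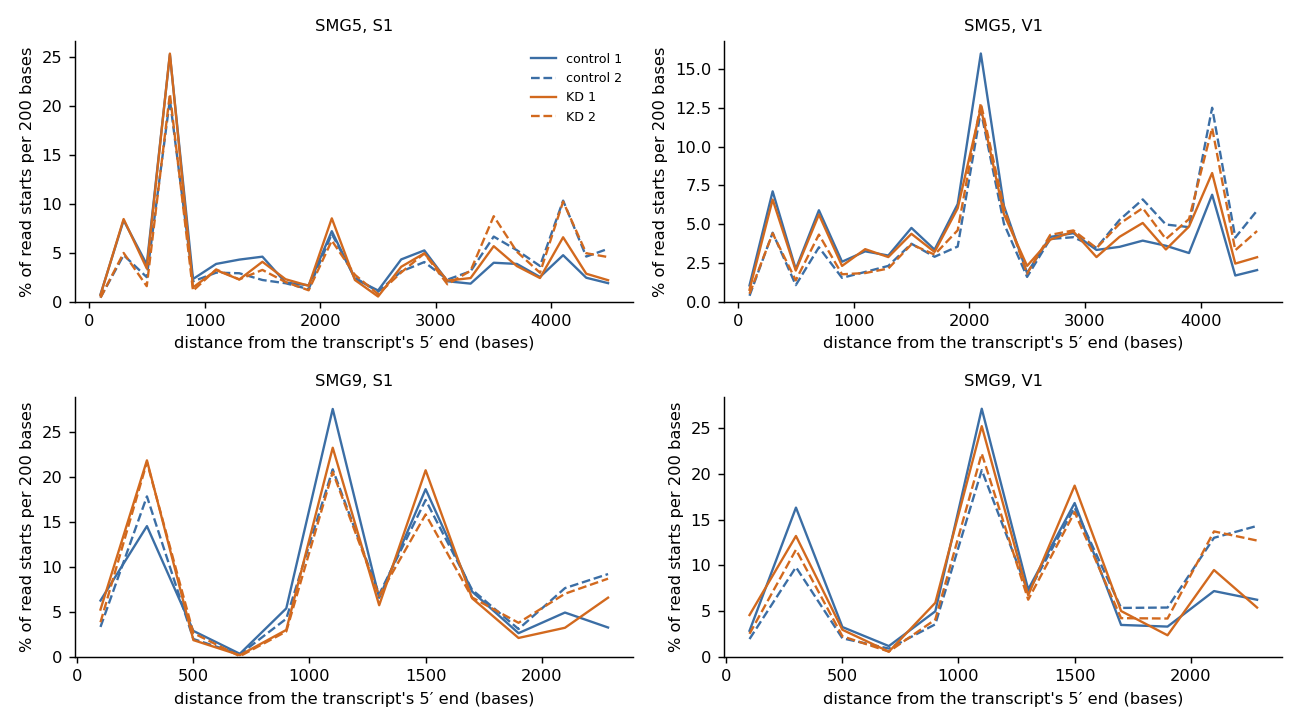
Percent of each transcript's read starts in stretches of 200 bases, by distance in bases from the 5′ end, for SMG5 and SMG9 with S1 and V1; blue is control, orange is KD, solid lines are replicate 1 and dashed lines replicate 2. Peaks at bases 601 to 800 (S1) and 2001 to 2200 (V1) of SMG5 and at bases 1001 to 1200 of SMG9 appear in every library, though not always as the fullest stretch, and toward the 3′ end the dashed lines run above the solid ones.

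A base was called paired (DS) where V1 read starts were in excess, or unpaired (SS) where S1 read starts were. The two-sided Fisher's exact test at p under 0.05 took as totals each library's read starts on the transcripts listed in all 8 libraries. In SMG5 between 480 and 549 of 4577 bases were classified per replicate. Its share DS/(DS + SS) was 0.725 and 0.729 in control replicates 1 and 2 and 0.639 and 0.669 in the KD replicates. SMG9 had 147 to 176 classified bases, and its share was 0.537 and 0.688 in the controls and 0.48 and 0.563 in the KD replicates, so that its groups overlapped. With 2 values against 2 an exact permutation test cannot go below p = 0.33. Over 4475 transcripts the median share was 0.615 and 0.604 in the controls and 0.542 and 0.574 in the KD replicates, and 74.0% of transcripts were lower in the KD in both replicates, against 3.93% that were higher in both. The mean difference of the share, KD minus control, was -0.0732 in SMG5 and -0.0911 in SMG9. With the transcript's own read starts as totals it was -0.0707 in SMG5 and -0.0619 in SMG9. When read starts were also thinned, to 3811 per library in SMG5 and 1672 in SMG9, it was 0.00201 and 0.0278. In this draw the difference was 0.0143 in replicate 1 and -0.0103 in replicate 2 of SMG5, and 0.0299 and 0.0258 in SMG9, so that only SMG5 in replicate 2 was still lower in the KD.

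**Figure D5:**
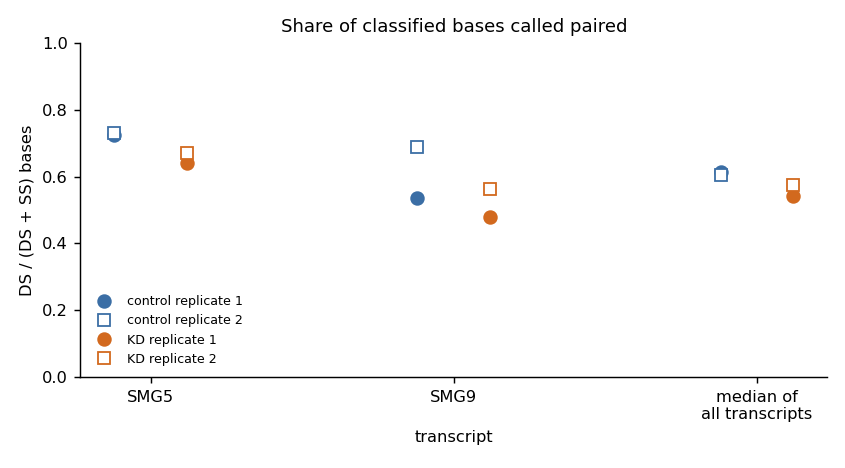
Share of classified bases called paired, from 0 to 1, in SMG5, SMG9 and as the median of 4475 transcripts, with control in blue, KD in orange, filled circles for replicate 1 and open squares for replicate 2. The KD points lie below the control points of the same replicate in all 3 columns before thinning.

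Other parts of the pathway were read from fixed lists in the same table. Of 6 genes of the exon junction complex, 4 were higher and 1 was lower in both KD columns of PARS-seq, beside 33.3% and 27.2% of all genes. RNPS1, a splicing activator that joins the complex, had 10.2 and 11.5 RPKM in the PARS-seq controls and 18.4 and 19.0 in the KD columns, and 41.2 and 69.7 RPKM in control and KD RNA-seq. CASC3, a core subunit, had 30.1 and 39.2 RPKM against 56.1 and 63.9 in PARS-seq, and 31.8 against 46.8 in RNA-seq. RBM8A, whose product pairs with MAGOH, had 10.5 and 12.6 RPKM against 13.1 and 13.8 in PARS-seq, and 14.2 against 13.9 in RNA-seq. MAGOHB was lower, with 9.27 and 9.44 RPKM against 7.32 and 7.88 in PARS-seq and 2.06 against 1.11 in RNA-seq. Of the 6 genes 1 was past 1.5-fold higher in RNA-seq and 1 past 1.5-fold lower, beside 6.72% and 7.40% of all genes. The median log2(RPKM + 1) difference over both PARS-seq replicates and RNA-seq was 0.41 for this list of 6 (range -0.36 to 0.74). It was 0.08 for termination and cap or tail binding, 0.04 for other cofactors, 0.13 for the readout transcripts, 0.02 for the 9 decay factors and 0.02 for all genes.

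Of 6 genes of termination and of cap or tail binding, 3 were higher and 2 lower in both KD columns of PARS-seq, near the 33.3% and 27.2% of all genes. The lower ones were the release factor paralogs GSPT1, with 36.4 and 40.5 RPKM in the controls against 21.9 and 21.5, and GSPT2, with 5.34 and 6.70 against 3.34 and 3.12. In control and KD RNA-seq GSPT1 had 30.8 and 22.8 RPKM and GSPT2 had 2.14 and 1.14. PABPC1, the poly-A binding protein, had 880 and 1035 RPKM in the controls and 1156 and 1358 in the KD columns, and 273 and 349 RPKM in control and KD RNA-seq. NCBP1, the large cap-binding subunit, had 8.90 and 7.66 RPKM in the controls against 12.2 and 9.98, and 5.44 and 7.14 RPKM in control and KD RNA-seq. Of this list none was past 1.5-fold higher in RNA-seq and 1 was past 1.5-fold lower, beside 6.72% and 7.40% of all genes.

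Of 15 decay enzymes and other cofactors, 4 were higher and 5 lower in both KD columns of PARS-seq, near the 33.3% and 27.2% of all genes, and none of the 12 with a mean of at least 1 RPKM in RNA-seq passed 1.5-fold there. RUVBL2, an ATPase reported to act with SMG1, had 29.4 and 25.1 RPKM in the PARS-seq controls and 40.9 and 54.0 in the KD columns, and 151 and 227 RPKM in control and KD RNA-seq. In RNA-seq it lay at the edge of the 1.5-fold cut, which its unrounded values did not pass. NBAS had 6.87 and 7.11 RPKM against 10.3 and 9.67 in PARS-seq. The decapping factor DCP1A had 4.35 and 4.99 RPKM against 2.82 and 2.64, and the deadenylase CNOT8 had 27.8 and 26.4 against 17.2 and 15.5.

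Of 12 transcripts commonly used as readouts of the pathway, 11 have a row. In PARS-seq 6 of them were higher and 3 lower in both KD columns, beside 33.3% and 27.2% of all genes. In RNA-seq none was past 1.5-fold higher and 2 were past 1.5-fold lower, beside 6.72% and 7.40% of all genes. The 6 higher ones were GAS5, SNHG1, SNHG12, SNHG15, ATF4 and TBL2, named after their values were seen, and the first 4 have rows that also carry snoRNAs. In RNA-seq the log2(RPKM + 1) difference was -0.38 for GAS5, -0.14 for SNHG1 and -0.41 for SNHG12. It was 0.26 for SNHG15, 0.18 for ATF4 and 0.20 for TBL2. SNHG15 had 25.8 and 37.1 RPKM in the PARS-seq controls and 39.9 and 61.2 in the KD columns. ATF4, a stress-response factor with upstream reading frames, had 93.0 and 94.5 RPKM against 104 and 133. ATF3 had 17.2 and 16.7 RPKM against 11.9 and 10.9. CDKN1A, which encodes the cell-cycle inhibitor p21, had 424 and 447 RPKM against 53.4 and 59.6 in PARS-seq and 172 against 55.6 in RNA-seq. In Ribo-seq limma called no gene of these 4 lists.

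The pattern most like that of UPF1 over the 10 RPKM columns, by Pearson's r of log2(RPKM + 1) among 11368 genes, was that of COL6A1 (r = 0.99), LOC100131094 (r = 0.99) and GTF3C1 (r = 0.988). GTF3C1, a subunit of the RNA polymerase III factor TFIIIC, had 19.6 and 18.3 RPKM in control and KD RNA-seq and 9.76 to 10.6 RPKM in PARS-seq. The columns come from 3 assays, so a high r largely reads the levels of a gene in the 3 assays. Among the decay factors, r with UPF1 ranged from -0.795 for SMG1 and -0.781 for UPF2 to 0.602 for SMG9.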

How the data were processed

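The authors trimmed reads with cutadapt and aligned them with Bowtie2 to hg19/GRCh37 (versions not given in the sources used here). The deposited RPKM table holds 1 value per gene and column, and its PARS-seq columns are the authors' means of S1 and V1. The deposited PARS-seq tables hold a number of read starts at each base of UCSC canonical transcripts, from uniquely aligned reads. Their totals differ between libraries, so they were taken as not normalised. The study's methods also describe a scaling of samples to equal sums of read starts.

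Genes needed a mean of at least 1 RPKM. Ratios used no pseudocount and differences used log2(RPKM + 1). Ribo-seq was tested with limma 3.58.1 (R 4.3.3, mean trend, two-sided, Benjamini-Hochberg, adjusted p under 0.05). So were log2 read starts per transcript, with 0.5 added and TMM scaling computed from its definition. A transcript needed 15 read starts over the libraries compared and, in 2 of them, the equivalent of 10 at median library size. RPKM times gene length and depth gave whole reads within 0.01 for 99.9% of 17791 genes in the RNA-seq and Ribo-seq libraries, which supplied library totals and counting intervals. The fits were also run on simulated data with known changes. Noise there was drawn for each library alone, so these runs say nothing of effects shared by a replicate number. Rows with a duplicated symbol (2) were left out. Other software was Python 3.11.15, numpy 2.4.6, scipy 1.17.1, pandas 2.3.3 and matplotlib 3.10.9.

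The genes, lists and tests were chosen with earlier results of these data known. All 9 decay factors and ADAR were named, with, from each other list, the 2 genes of highest and the 2 of lowest mean log2 difference over PARS-seq and RNA-seq, and the 3 genes most like UPF1. Alternatives covered scaling, filters, pseudocount, thinning, the replicate block and leaving out each library. One was added after seeing the data, limma with precision weights on recovered reads.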

Additional observations from a re-analysis of the deposited data

How the results depend on the processing

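No decay factor was called by limma in Ribo-seq, S1 or V1 under any alternative run, and none passed 1.5-fold in RNA-seq under another pseudocount, scaling or filter. The count of decay factors higher in both KD columns of PARS-seq stayed within 1.5 times of 4. It was 3 with median of ratios scaling, where UPF1 left it, and the share of all genes went from 33.3% to 30.3%. When each KD column was set against the control of its number (the replicate block), it was 5. With only 1 replicate it was 6 and 6. The share of all genes that were higher then rose to 45.1%, 54.9% and 53.3%. The count of lower decay factors went from 0 to 2 with the replicate block and to 3 and 3 with only 1 replicate. The share of all genes that were lower went from 27.2% to 36.9%, 45.1% and 46.7%.

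With the replicate block, limma called 143 genes in Ribo-seq in place of 0, 1448 transcripts in place of 744 with S1 and 5887 in place of 1761 with V1. An alternative chosen after seeing the data, precision weights on recovered reads, called 77 genes in Ribo-seq with the block. Same-numbered libraries deviated together (correlation of deviations 0.81 in Ribo-seq, 0.467 with S1 and 0.388 with V1), but the labels do not say what a number marks and there are only 2 pairs. Paired by number, 3 decay factors were higher in both Ribo-seq pairs (SMG8, UPF2, UPF3B) and 3 lower (SMG9, SMG5, SMG6), in place of 1 and 1, where 31.3% and 21.8% of all genes were. With median of ratios scaling 2 were lower (UPF1, SMG6), beside 8.77% of all genes.

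With only 1 replicate the Ribo-seq counts were 4 to 5 higher and 4 to 5 lower, and those of the Ribo-seq to RNA-seq ratio 3 to 6 higher and 3 to 6 lower, since 1 value then stands against 1. Of all genes 47.1% to 61.6% were then higher and 38.0% to 51.4% lower in Ribo-seq, and 50.7% to 61.3% and 38.4% to 49.0% in the ratio. Leaving out 1 library gave 0 to 24 called genes in Ribo-seq (24 without KD replicate 2), 390 to 878 with S1 (390 without control replicate 1, 478 without KD replicate 2) and 1045 to 3500 with V1 (1045 without KD replicate 2, 3500 without control replicate 2).

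Directions that turned were of differences that had not passed a test or had none. Leaving out 1 library moved the Ribo-seq log2 difference of UPF1 from -0.72 to 0.14, UPF3A from -0.50 to 0.27, UPF3B from -0.02 to 0.71, SMG1 from -0.40 to 0.39, SMG8 from -0.25 to 1.53 and SMG9 from -0.62 to 0.24. It moved SMG5 from -0.10 to 0.25 with S1 and from -0.29 to 0.03 with V1, and SMG9 from -0.27 to 0.16 with S1 and from -0.41 to 0.04 with V1. Precision weights gave UPF3A 0.00 in Ribo-seq, and scaling by the library total gave SMG5 -0.29 with S1. The Ribo-seq log2 differences of SMG5 and UPF2 kept their direction but ranged from -1.19 to -0.10 and from 0.32 to 0.82. Without replicate 1 the untested log2 change of the Ribo-seq to RNA-seq ratio turned from -0.20 to 0.12 for UPF1, from -0.21 to 0.33 for UPF3A and from -0.04 to 0.11 for SMG9. The mean difference in the share of paired bases was -0.0936 in SMG5 and -0.0299 in SMG9 with bases called at p under 0.01, and 0.00201 and 0.0278 after 1 draw of thinning to equal read starts. The cause of these changes was not tested.

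Ribo-seq depth limits what can be seen: a decay factor had between 15 and 416 reads in a library.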
